A study of Mus musculus with 40 samples.

Results

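The 9 genes described here are feedback genes of the MAPK pathway: the dual-specificity phosphatases Dusp1, Dusp2, Dusp4, Dusp5, Dusp6 and Dusp10, and the Ras inhibitors Spry1, Spry2 and Spred1. They were picked by symbol from the 21950 genes of an RNA-seq table of mouse CD4 T cells, and all 9 are in that table. The rule uses no measured value, but the genes were chosen with earlier results of these data known. The table holds 24 libraries in 8 groups of 3. Cells came from the spleens of C57BL/6 mice that carry a fluorescent Foxp3 reporter, so that Foxp3+ and Foxp3- cells could be sorted. The reporter was GFP for Tconvs and tTregs, and the methods name GFP or RFP for iTregs without saying which was used for these libraries. Tconvs, which are conventional Foxp3- CD4+ T cells, and tTregs, which are thymus-derived regulatory T cells labelled nTreg, were sorted from mice 2 to 4 months old and sequenced at rest or after activation. iTregs were made from naive CD4+ T cells (reporter-negative, CD62L high, CD44 low) of mice 6 weeks old, on plate-bound anti-CD3 and anti-CD28 with 2 ng/ml TGF-β and 200 U/ml IL-2 for 4 days. They were then sorted by the reporter and rested for 1 day in fresh medium that still held 200 U/ml IL-2. Resting iTregs were compared with cells restimulated through CD3 and CD28, either alone or in the presence of CM-4620 or CsA. Restimulation used 0.5 µg/ml anti-CD3 and 1 µg/ml anti-CD28. CM-4620 blocks ORAI calcium channels (the labels name only an ORAI inhibitor), and CsA, or cyclosporin A, blocks the phosphatase calcineurin that activates NFAT. The labels call the cells of the CsA libraries Treg rather than iTreg, and the duration of activation or restimulation before RNA-seq is not given in the sources used here. The starting cells and the mouse age differed between iTregs and the sorted cells, so differences between them cannot be told apart from those of culture and age.

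MAP kinases (ERK, JNK and p38) relay signals from the T cell receptor to the nucleus when they are phosphorylated on a threonine and a tyrosine. Dual-specificity phosphatases remove both phosphates. Many DUSP genes are themselves induced by MAPK signaling, as are Sprouty and Spred genes, whose products restrain the pathway upstream at the level of Ras and Raf, so that together they act as negative feedback. Dusp1, Dusp2, Dusp4 and Dusp5 act in the nucleus, Dusp6 acts on ERK in the cytoplasm, and Dusp10 prefers JNK and p38 as substrates.

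Reads on genes numbered 5256800 to 15685234 per library. The tTreg groups had the lowest medians (7582032 at rest and 7131717 after activation), with libraries from 5256800 to 9893053. Values of 3 reads or fewer were treated as at the floor, which covers counting error only. Replicates of tTregs differed more than those of Tconvs, with a variance between pairs of libraries 12.7 to 36.3 times that of counting alone, against 3.01 to 9.35 times in Tconvs. Resting iTreg library 3 stood 16.4 and 13.5 times from libraries 1 and 2, which stood 4.96 times from each other, and calls that were lost without the libraries numbered 3 are given beside each result. Foxp3 had a mean of 10.4 normalized counts in resting Tconvs, 7537 in resting tTregs, 1280 ± 88.4 in resting iTregs and 710.3 ± 18.7 in restimulated iTregs (SD, n = 3). The 5 Treg markers Foxp3, Ikzf2, Il2ra, Ctla4 and Lrrc32 together summed to 463 to 490 in resting Tconvs and 5212 to 5434 in activated Tconvs. Their sum was 27117 to 33802 in tTregs and 13338 to 18373 in iTregs. As a set they thus also rose in activated Tconvs, but stayed below every Treg library. The summed level of 3 CD4 T cell markers lay between 10562 and 23678 in all libraries. Markers of CD8 T, B, myeloid, NK and red cells, 12 genes together, summed to 289 to 305 in resting Tconvs and to 107 to 201 in the other groups, with 3 to 7 of the 12 at 0 in every library of a group. Cd8b1 made up 229 of that sum in resting Tconvs, and their part in the differences from resting Tconvs given here was not tested. In such bulk samples, fewer cells of a type and less RNA per cell cannot be told apart. Libraries of a group are separate samples in the labels, but nothing says that they came from separate mice, so p-values measure only the spread between these samples, which may be technical.

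In the GENCODE annotation of GRCm38 the 9 genes are protein-coding and lie on 8 chromosomes. The genes that the results turn on most are Dusp4 (ENSMUSG00000031530.6, chr8:34807297-34819894, plus strand), Dusp10 (ENSMUSG00000039384.8, chr1:184013302-184075636, plus strand), Dusp6 (ENSMUSG00000019960.8, chr10:99263231-99267489, plus strand), Dusp5 (ENSMUSG00000034765.6, chr19:53529109-53542431, plus strand) and Spry1 (ENSMUSG00000037211.12, chr3:37639947-37644598, plus strand). Of the exon bases of Dusp5, 22.1% overlap a gene on the other strand, and of those of Spry1, 24.4%. The library protocol does not mark strand, so reads from these overlaps cannot be assigned to either gene, and the values of Dusp5 and Spry1 are uncertain to that extent. Less than 1% of the exon bases of Dusp1 overlap another gene, and those of the other 6 members overlap none.

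Promoter windows of RefSeq (GRCm38.p6, 250 bases before to 50 after the start site) were matched for 8 of the 9 genes, all but Dusp4. They were searched on both strands for the letters GGAAA (the core bound by NFAT), TGANTCA (AP-1), TGACG (part of the site of CREB-type factors) and the CArG box bound by SRF. GGAAA occurs in 5 of the 8 windows and in 61.3% of all 32851 windows, and TGACG occurs in 3 of the 8 and in 20.8% of all. TGANTCA occurs in none of the 8 and in 7.81% of all. The CArG box occurs in 1.63% of all windows and, among the members, in Dusp5 alone, which holds a pair of them 82 and 72 bases before the start, next to each other. The stretches before the start site are shown for a gene that rose in Tconvs with those boxes (Dusp5), for the gene with the most TGACG matches, which fell (Dusp1), and for a gene that rose with no box (Dusp6). Capitals mark the matches, which may read as their reverse complement, and in Dusp1 the matches 143 and 140 bases before the start overlap each other.
Dusp5, chr19:53528895-53529144, plus strand: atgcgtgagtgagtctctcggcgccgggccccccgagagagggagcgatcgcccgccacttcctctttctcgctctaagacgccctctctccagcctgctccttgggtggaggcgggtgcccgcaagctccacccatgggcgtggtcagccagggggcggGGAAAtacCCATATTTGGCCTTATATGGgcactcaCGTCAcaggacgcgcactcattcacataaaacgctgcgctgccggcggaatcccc
Dusp1, chr17:26508473-26508722, minus strand: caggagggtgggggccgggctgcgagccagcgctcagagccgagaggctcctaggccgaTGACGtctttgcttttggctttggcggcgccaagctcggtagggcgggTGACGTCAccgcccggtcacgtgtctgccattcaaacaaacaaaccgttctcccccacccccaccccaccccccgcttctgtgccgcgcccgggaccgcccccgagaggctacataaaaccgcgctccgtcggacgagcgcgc
Dusp6, chr10:99262981-99263230, plus strand: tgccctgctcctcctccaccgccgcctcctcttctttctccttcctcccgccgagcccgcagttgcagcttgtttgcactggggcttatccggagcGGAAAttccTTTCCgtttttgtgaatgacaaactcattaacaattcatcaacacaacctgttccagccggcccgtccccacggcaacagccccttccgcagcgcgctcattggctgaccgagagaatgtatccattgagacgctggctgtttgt

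The deposited values are gene counts divided by 1 size factor per library, called normalized counts here. Per kb of exon, Dusp10 was the most abundant of the 9 in all Tconv and tTreg groups, from 186 normalized counts per kb in activated tTregs to 603 in activated Tconvs. In iTregs it ranked 4 to 6, at 54.3 to 61.5 normalized counts per kb. There the leading gene was Dusp6 at rest and under either inhibitor, with 178 to 222 normalized counts per kb, and Dusp4 after restimulation, with 272. Spry1, Spry2 and Spred1 stayed at or below 32.1 normalized counts per kb in every group.

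**Figure D1:**
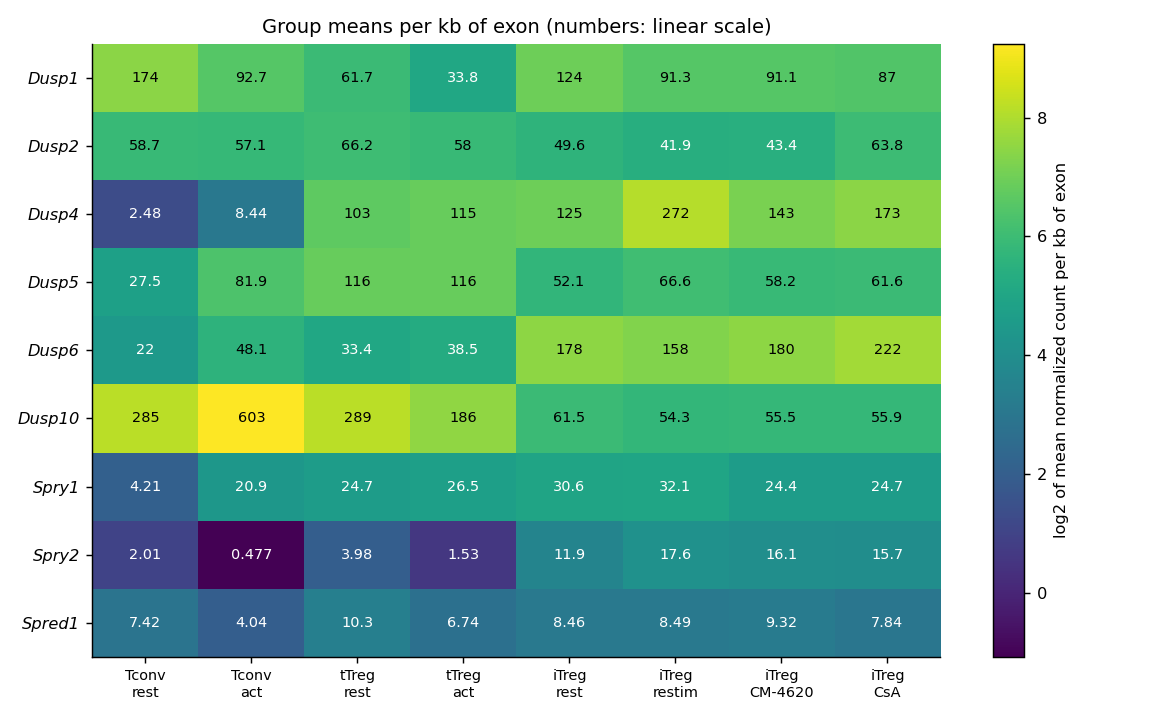
Mean normalized count per kb of exon for the 9 genes (rows) in the 8 groups (columns, 3 libraries each), with the color on a log2 scale and the numbers on the linear scale. Dusp10 leads in the Tconv and tTreg columns, and Dusp6 and Dusp4 lead in the iTreg columns.

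Among the nuclear phosphatases, Dusp4, which is induced by ERK signaling and acts on ERK and JNK, was nearly absent from Tconvs and high in every Treg group. Resting Tconvs had 4.11, 7.5 and 8.78 normalized counts, and activated Tconvs 21.6, 25.9 and 21.9. The values in resting Tconvs are 4, 8 and 10 reads, so ratios to this group rest on few reads. Resting tTregs had 194, 219 and 432, and activated tTregs 498, 201 and 245, so that the tTreg groups overlapped each other and lay far above all Tconv libraries. Among iTregs the values were 321, 428 and 278 at rest, 733, 879.7 and 622 after restimulation, 421, 438 and 319 with CM-4620, and 545, 511 and 369 with CsA. Every restimulated library lay above all libraries of the other 7 groups.

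Dusp5, a nuclear phosphatase specific for ERK, had its highest values in tTregs and its lowest in resting Tconvs. The libraries held 74.0, 59.1 and 71.1 normalized counts in resting Tconvs, 200.2, 204 and 203 in activated Tconvs, 317, 304 and 240.3 in resting tTregs and 273, 332 and 254 in activated tTregs. All 12 iTreg libraries lay between 119 and 169.8, below every activated Tconv and tTreg library and above every resting Tconv library.

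Dusp1, an early-response phosphatase that acts on all classes of MAP kinase, was highest in resting Tconvs (594, 688 and 446 normalized counts) and lowest in activated tTregs (131, 113 and 92.6). Resting iTregs had 468, 489 and 275, activated Tconvs 312, 386 and 223, and resting tTregs 176, 158 and 279. The other iTreg groups ranged from 167 to 374. The library numbered 3 was the lowest of its group in all 6 Tconv and iTreg groups, and the SD reached 122 normalized counts in resting Tconvs. No neighbours in the order of the 8 group means were told apart by the rule of an adjusted p below 0.05, a log2 difference above 0.5 and libraries that do not overlap.

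Dusp2, a nuclear phosphatase first found in activated T cells, was the most even of the 9, with group means from 83.9 to 133 normalized counts. Only 2 of its 28 pairs of groups passed the thresholds in a fit over all 24 libraries, or 7.14%, where 43.6% of all such tests over all genes did. At the other end, Dusp10 passed in 21 of 28 pairs (75.0%) and Dusp6 in 20 (71.4%).

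**Figure D2:**
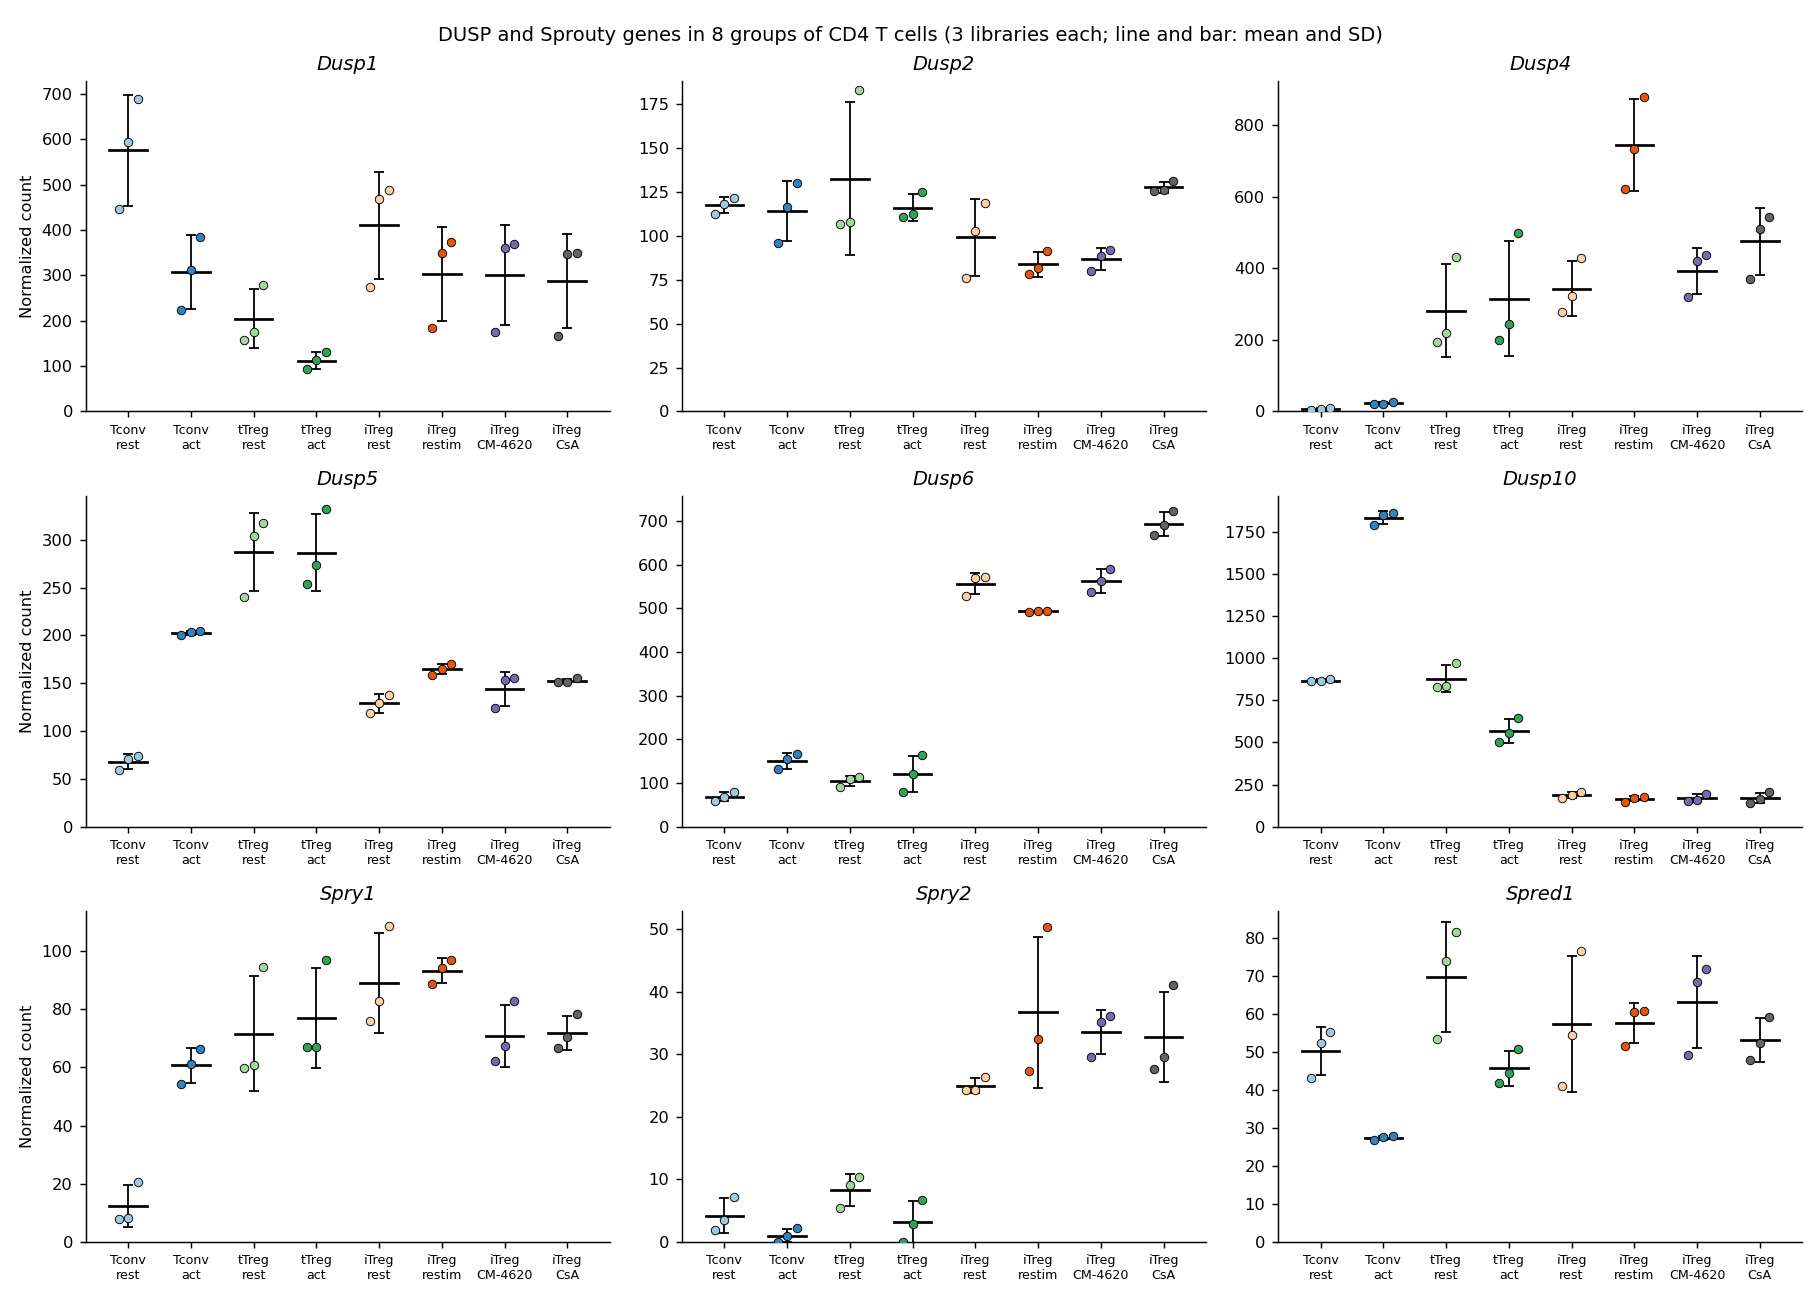
Normalized counts (y axes, linear from 0) of the 9 genes in the 8 groups (x axes), with 1 point per library, a line at the mean and a bar of ± 1 SD (n = 3). Dusp4 sits between 4.11 and 25.9 in Tconvs and between 194 and 879.7 elsewhere, and Dusp10 falls to between 142 and 207 in all iTreg libraries.

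Dusp6, the cytoplasmic phosphatase of ERK, separated iTregs from the sorted cells. Resting iTregs had 529, 570.0 and 571 normalized counts, restimulated iTregs 493, 493 and 495, iTregs with CM-4620 537, 562 and 591, and iTregs with CsA 689.9, 669 and 724. Tconv and tTreg libraries lay between 59.7 and 166, so no iTreg library overlapped them. In the order of the 8 group means, the step from restimulated iTregs to activated Tconvs was 1.71 on the log2 scale (adjusted p = 1.61e-08).

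Dusp10 showed the reverse contrast, with iTregs below the sorted cells. It stood at 864, 863 and 875 normalized counts in resting Tconvs and at 1789, 1853 and 1863 in activated Tconvs. In tTregs it stood at 972, 829 and 833 at rest and at 501, 646 and 554 after activation. The 12 iTreg libraries ranged from 142 to 207, below every other library, and the 4 iTreg groups could not be told apart.

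Among the Ras inhibitors, Spry1 was low only in resting Tconvs, with 8.23, 20.6 and 7.9 normalized counts against 54.5 to 109 in all other libraries. Spry2 was detected at 24.2 to 50.4 in iTregs. In Tconvs and tTregs it had 0 to 8 reads per library, and in activated Tconvs 0, 1 and 3 reads, at or under the floor of 3. Activated tTregs had 5, 3 and 0 reads. No fold change of Spry2 that rests on either activated group is given, and its fitted values against the resting sorted cells, with 2 to 8 reads, depend on the pseudocount. A gene had to reach 10 normalized counts in 3 libraries to be tested. Outside iTregs, Spry2 reached that level only in resting tTreg library 2 (10.4), so it was tested only because of iTregs. Its calls as higher in iTregs are thus partly set by the filter and are no separate support. Spred1, which brings the Ras-GAP neurofibromin to the membrane, had group means between 27.4 and 69.7, and activated Tconvs, at 27.8, 27.6 and 26.9, lay below all other libraries.

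Tests were made on the log2 of the normalized count plus 1, on which fold changes of low genes are understated, and a gene is said to rise, fall, or be higher or lower where its adjusted p was under 0.05 and its log2 fold change was over 0.5 in size. On activation of Tconvs, 7 of the 9 genes changed, against 50.2% of the 11495 genes tested. Spry1 rose by 2.35 ± 0.31 (log2 fold change ± SE, adjusted p = 1.02e-05), Dusp4 by 1.68 ± 0.35 (0.000758), Dusp5 by 1.57 ± 0.14 (1.66e-07), Dusp6 by 1.12 ± 0.21 (0.000255) and Dusp10 by 1.08 ± 0.10 (3.22e-07). In linear terms the mean of Spry1 rose 4.96-fold, that of Dusp4 3.40-fold and that of Dusp5 2.98-fold. Dusp1 fell by 0.92 ± 0.27 and Spred1 fell by 0.84 ± 0.22 (adjusted p = 0.00791 and 0.00422). The 7 calls held under every alternative that tested the gene at these thresholds (13 or 14 a gene). The median log2 fold change of the 9 genes was 1.08, beside -0.04 for all genes tested.

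On activation of tTregs, 2 of the 9 genes changed, against 21.9% of all genes tested, and both fell. Dusp10 fell by 0.63 ± 0.10 (adjusted p = 0.000327) and Dusp1 fell by 0.83 ± 0.27 (adjusted p = 0.0268). The call of Dusp1 was lost without the libraries numbered 1 (log2 fold change -1.03, adjusted p = 0.0682), without those numbered 3 (-0.46, 0.0514) and with all 24 libraries in the fit (0.0590), where the range over 14 alternatives was 0.00632 to 0.0682. Without the libraries numbered 1 the fall of Dusp10 was -0.47, under the fold threshold. The 95% intervals of the 7 other genes spanned 0 or missed the adjusted threshold: Dusp5 had a log2 fold change of -0.00 (-0.30 to 0.30), and Spry1 of 0.12 (-0.54 to 0.77). Spred1, at -0.58 with an adjusted p of 0.0564, passed under 5 of 13 alternatives, in a range of 0.0270 to 0.332.

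The responses of Tconvs and tTregs were compared directly as a difference of log2 fold changes, and 5 of the 9 genes passed, against 34.7% of all genes tested. The rise in Tconvs exceeded the change in tTregs by 2.23 ± 0.44 for Spry1 (adjusted p = 0.000958), 1.71 ± 0.14 for Dusp10 (4.15e-07), 1.57 ± 0.20 for Dusp5 (2.05e-05), 1.54 ± 0.50 for Dusp4 (0.0236) and 0.98 ± 0.29 for Dusp6 (0.0159). Dusp10 moved in opposite directions, with all activated Tconv libraries above all resting ones and all activated tTreg libraries below. The spread of Dusp4 and Dusp6 within activated tTregs was wide, with SDs of 160.5 and 42.2 normalized counts. Without the libraries numbered 2 the differences were 1.41 (adjusted p = 0.131) for Dusp4 and 0.72 (0.0813) for Dusp6, and without those numbered 3 they were 1.29 (0.122) and 0.80 (0.182). That of Dusp4 also missed the threshold with a pseudocount of 5 (adjusted p = 0.0613) and with edgeR on the reads (0.0839). The adjusted p of the difference of Dusp4 ranged from 0.00715 to 0.131 over 14 alternatives, and that of Dusp6 from 0.00217 to 0.182. The median over the 9 genes was 0.98, beside -0.05 over all genes tested.

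**Figure D3:**
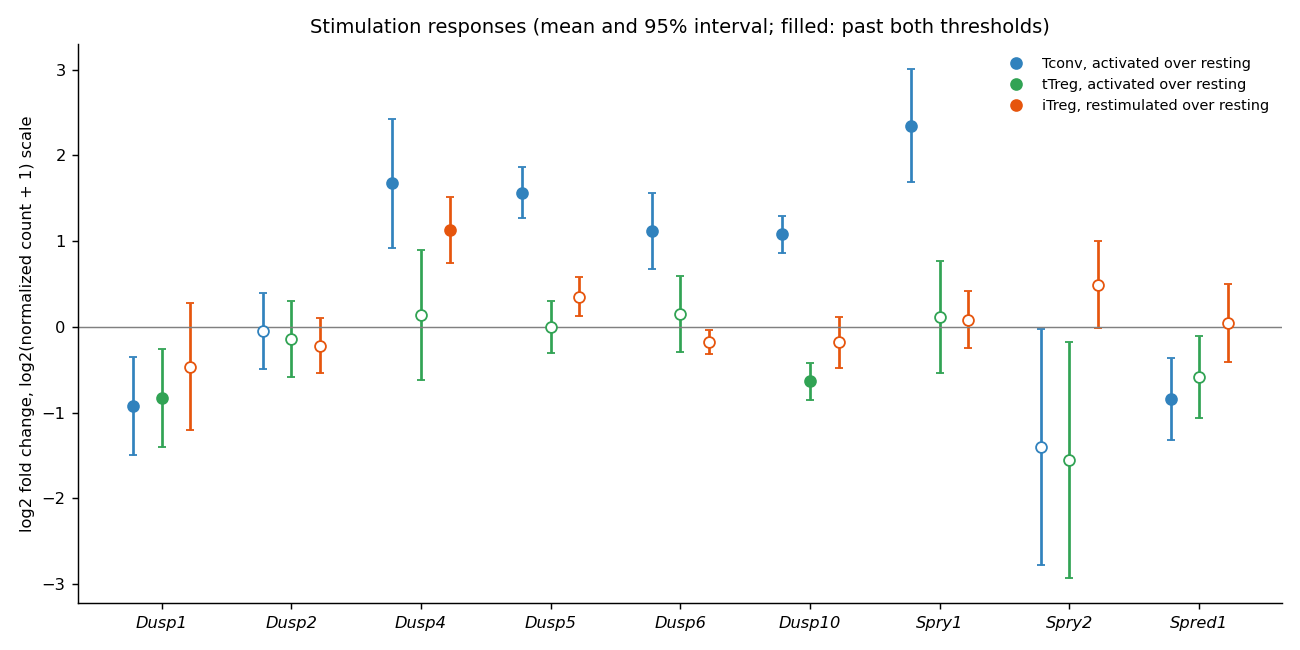
Log2 fold change on stimulation (y axis, from the log2 of the normalized count plus 1) of the 9 genes (x axis) in Tconvs, tTregs and iTregs, with 95% intervals from limma (3 libraries per group). Filled points passed both thresholds: 7 in Tconvs, 2 in tTregs and 1, Dusp4, in iTregs.

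At rest, tTregs differed from Tconvs in 5 of the 9 genes, against 38.6% of all genes tested. Dusp4 was 41.4-fold higher in tTregs (log2 fold change 5.14 ± 0.35, adjusted p = 1.48e-08), Spry1 5.85-fold (2.55 ± 0.31, 6.59e-06) and Dusp5 4.22-fold (2.06 ± 0.14, 1.27e-08), and Dusp6 was 1.52-fold higher (0.60 ± 0.21, 0.0245). Over the alternatives the log2 fold change of Dusp4 ran from 4.53 to 5.36. Dusp1 was lower by 1.51 ± 0.27 on the log2 scale (the fold change was -1.51, adjusted p = 0.000264). The call of Dusp6 was lost without the libraries numbered 3 (0.47, adjusted p = 0.231) and with quantile normalization (0.0769), in a range of 0.00461 to 0.231 over the alternatives. After activation 4 genes differed, against 48.2% of all genes tested: Dusp4 was higher (3.60 ± 0.35), as was Spred1 (0.71 ± 0.22), and Dusp10 and Dusp1 were lower in tTregs (-1.70 ± 0.10 and -1.43 ± 0.27). Of these, Spred1 was lost without the libraries numbered 2 (0.73, adjusted p = 0.0826) and with quantile normalization (0.43, 0.130), in a range of 0.00481 to 0.130. Dusp5 and Spry1, both higher in tTregs at rest, stood after activation at 203 and 60.7 normalized counts in Tconvs and at 287 and 77.1 in tTregs, differences of 0.49 (adjusted p = 0.00708, just under the fold threshold) and 0.32 (0.382). Dusp5 passed without the libraries numbered 1 or 3 (0.51 and 0.57, adjusted p = 0.0451 and 0.0159), and Dusp6 without those numbered 1 (-0.72, 0.0163).

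Resting iTregs differed from resting Tconvs in 6 of the 9 genes, against 63.6% of all genes tested. Dusp4 was 50.4-fold higher in iTregs (log2 fold change 5.49 ± 0.35, 4.88 to 5.82 over the alternatives), Dusp6 8.10-fold (3.01 ± 0.21), Spry1 7.27-fold (2.88 ± 0.31) and Dusp5 1.89-fold (0.92 ± 0.14), and Spry2 was higher as well (adjusted p = 0.00307, lost at 0.0780 with a pseudocount of 0.1). Dusp10 was 4.63-fold lower (-2.21 ± 0.10, adjusted p = 5.18e-11). Against activated Tconvs 6 genes also differed, where 41.6% of all genes tested did: Dusp4, Dusp6 and Spred1 were higher in resting iTregs (3.81, 1.89 and 0.99 on the log2 scale), as was Spry2 (adjusted p = 0.000138), and Dusp10 and Dusp5 were lower (-3.29 and -0.65). Against resting tTregs 5 genes differed, where 63.4% of all genes tested did. There Dusp6 was 5.32-fold higher (2.41 ± 0.21, adjusted p = 6.66e-08), Dusp10 4.69-fold lower (-2.22 ± 0.10, 6.53e-11) and Dusp5 2.23-fold lower (-1.14 ± 0.14, 2.94e-06). Dusp4 and Spry1, at 1.22-fold and 1.24-fold, did not pass (adjusted p = 0.379 and 0.351), with 95% intervals of -0.40 to 1.11 and -0.33 to 0.98 on the log2 scale. Dusp1 and Spry2 were also higher than in resting tTregs (1.00 and 1.52 on the log2 scale), but the Dusp1 libraries overlap (275 in iTregs, 279 in tTregs). The call of Dusp1 was lost without the libraries numbered 1 or 2 (0.80 and 0.69, adjusted p = 0.0686 and 0.0895), and that of Spry2 without those numbered 1 or 3 (1.24 and 1.62, 0.139 and 0.0572), among 6 losses in 12 alternatives whose adjusted p ran from 0.00191 to 0.286. These comparisons share the resting iTreg libraries, and each count includes Spry2, which passed the filter only through iTregs.

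Restimulation of iTregs changed 1 of the 9 genes, against 12.8% of the 11105 genes tested in the 12 iTreg libraries. Dusp4 rose 2.17-fold, from a mean of 343 ± 76.8 to 745 ± 129 normalized counts (SD, n = 3; log2 fold change 1.13 ± 0.18, adjusted p = 0.000255), with no overlap of libraries, and this call held under each of 14 alternatives. Dusp5 stood 1.28-fold higher with an adjusted p of 0.0228, but its log2 fold change of 0.35 was under the fold threshold. Dusp1 stood at 468, 489 and 275 normalized counts at rest and at 349.5, 374 and 183 after restimulation, a log2 fold change of -0.46 ± 0.35 (adjusted p = 0.347), and the groups overlapped. Spry1 and Spred1 had log2 fold changes of 0.08 (95% interval -0.25 to 0.41) and 0.05 (-0.41 to 0.50), and Dusp6 of -0.17 (-0.31 to -0.03, adjusted p = 0.0596). The median of the 9 was 0.05, beside -0.01 for all genes tested. Foxp3 fell in the same libraries by 0.85 ± 0.09 on the log2 scale (adjusted p = 3.57e-06).

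The iTreg and tTreg responses were also compared directly, and none of the 9 genes passed with limma, against 21.3% of the 11725 genes tested in the 24 libraries. The lowest adjusted p values were those of Spry2 (0.0513), Dusp10 (0.0590, a difference of 0.45 ± 0.18), Dusp4 (0.102, 0.99 ± 0.44) and Spred1 (0.116, 0.63 ± 0.29). edgeR and DESeq2 on the reads also called none of the 9. Without the libraries numbered 1, Dusp4 passed (1.57, adjusted p = 0.0279), as did Spry2 (adjusted p = 0.0273). Spry2, whose tTreg values are near the floor, also passed with a pseudocount of 5 (adjusted p = 0.0233). It passed the filter only through iTregs. Without the libraries numbered 1, the activated tTreg libraries left held 3 and 0 reads of Spry2, at or under the floor of 3. Its place and its calls in this comparison are thus no separate support. Dusp10 passed without those numbered 2 (0.62, 0.0489) and with quantile normalization (0.56, 0.0310), and Spred1 without those numbered 3 (1.07, 0.0295).

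Of the 9 genes, Dusp4 alone passed against restimulated iTregs with CM-4620, where 3.3% of all genes tested passed, and Dusp4 and Dusp2 passed with CsA, where 2.92% did. Both inhibitor comparisons share the restimulated libraries. Dusp4 was 1.90-fold lower with CM-4620 (log2 fold change -0.92 ± 0.18, adjusted p = 0.00468) and 1.57-fold lower with CsA (-0.65 ± 0.18, 0.0358), and in neither case did the libraries overlap. Dusp4 in inhibitor-treated iTregs was 0.21 (95% interval -0.17 to 0.59, adjusted p = 0.467) above resting iTregs with CM-4620 and 0.47 (0.09 to 0.86, 0.0671) above with CsA. The calls against restimulated iTregs were lost when all 24 libraries shared the estimate of the spread (adjusted p = 0.130 and 0.331). They were lost without the libraries numbered 1 (-0.98 and -0.77, 0.0777 and 0.172), and that of CsA also without those numbered 2 (-0.59, 0.191) and with no filter on low genes (0.0532). Over the alternatives the adjusted p ranged from 2.55e-06 to 0.130 for CM-4620 and from 0.000105 to 0.331 for CsA, and the fold change stayed between -0.98 and -0.88 and between -0.77 and -0.59.

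Dusp2 stood at 126, 126 and 131 normalized counts with CsA, against 91.7, 81.8 and 78.1 in restimulated iTregs and 91.8, 88.9 and 79.8 with CM-4620. The CsA libraries lay above all others of the 12 iTreg libraries. Against restimulated iTregs this was a rise of 0.60 ± 0.15 on the log2 scale (adjusted p = 0.0222), which was lost when any replicate number was left out (0.68, 0.60 and 0.54 without numbers 1, 2 and 3, adjusted p = 0.0979, 0.246 and 0.0539) and with all 24 libraries (0.0734), in a range from 0.00864 to 0.246. Dusp6 also lay higher with CsA than in every other iTreg library. Its log2 fold change against restimulated iTregs was 0.49 ± 0.07 (adjusted p = 0.000347), just under the fold threshold, and 0.52 without the libraries numbered 2.

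CM-4620 and CsA were also compared with each other, and none of the 9 genes passed with limma, against 0.36% of all genes tested. edgeR and DESeq2 also called none. With limma, Dusp6 and Dusp2 had the lowest adjusted p values. Their differences were -0.30 (95% interval -0.44 to -0.16, adjusted p = 0.0460, under the fold threshold) and -0.55 (-0.87 to -0.23, adjusted p = 0.131). That of Dusp4 was -0.27 (-0.65 to 0.12). Against resting iTregs none of the 9 genes passed with either inhibitor, where 7.1% of all genes tested did with CM-4620 and 9.43% with CsA. With CM-4620 the lowest limma adjusted p was 0.1745 (Spry1). With CsA, Dusp6 had a log2 fold change of 0.32 ± 0.07 (limma adjusted p = 0.00274), and its libraries did not overlap those at rest. It missed the fold threshold only. Dusp4, Dusp2 and Dusp5 had adjusted p values of 0.0671, 0.0751 and 0.119. edgeR and DESeq2 called none in either comparison. Without the libraries numbered 3 Dusp4 passed with CsA (0.51, adjusted p = 0.00526).

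**Figure D4:**
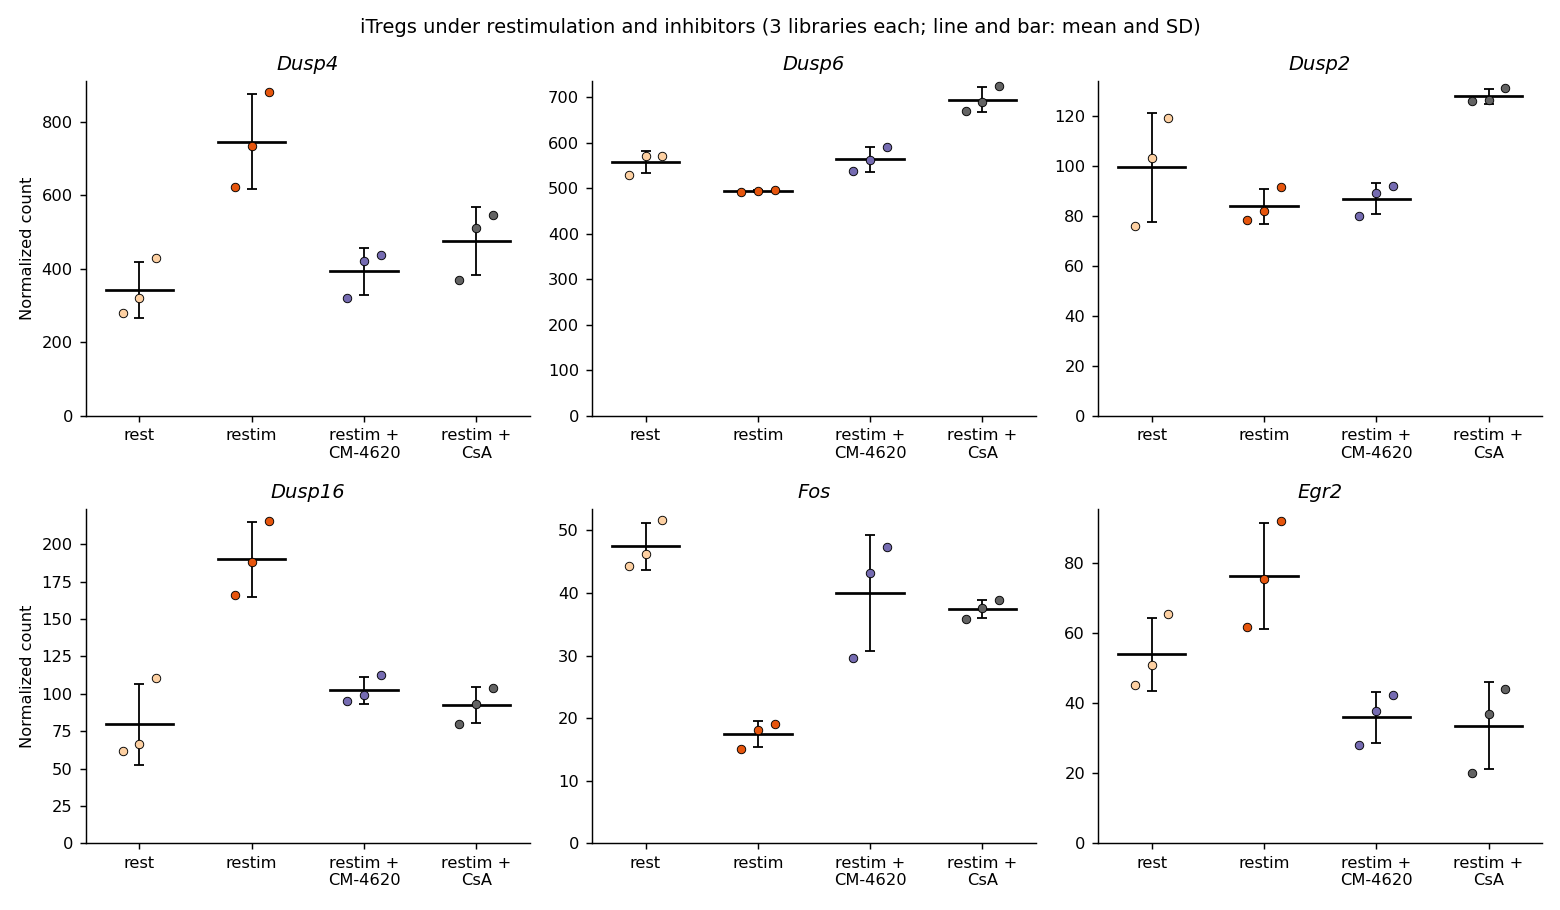
Normalized counts (y axes, from 0) of 6 genes in the 4 iTreg groups (x axes), with 1 point per library, a line at the mean and a bar of ± 1 SD (n = 3). Dusp4 and Dusp16 peak in restimulated iTregs, at means of 745 and 189.8, Fos is lowest there at 17.4, and Dusp6 and Dusp2 are highest with CsA at 694 and 128.

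Restimulated iTregs were finally set beside the activated sorted cells. They differed from activated Tconvs in 6 of the 9 genes, against 44.3% of all genes tested: Dusp4, Dusp6, Spred1 and Spry1 were higher in iTregs (4.94, 1.71, 1.04 and 0.62 on the log2 scale), as was Spry2 (adjusted p = 5.19e-07), and Dusp10 was lower (-3.47). The call of Spry1 (adjusted p = 0.0480) was lost under 7 of 12 alternatives, whose adjusted p ran from 0.00303 to 0.212, among them each replicate number left out (0.72, 0.62 and 0.51 without numbers 1, 2 and 3). From activated tTregs they differed in 6 genes as well, against 59.3% of all genes tested: Dusp6, Dusp1 and Dusp4 were higher (2.09, 1.37 and 1.34), as was Spry2 (adjusted p = 4.85e-06), and Dusp10 and Dusp5 were lower (-1.77 and -0.79). Dusp4 was lost there without the libraries numbered 2 (0.95, adjusted p = 0.0589, the highest over 13 alternatives, the lowest being 0.000203). Both counts of 6 include Spry2, which passed the filter only through iTregs. 

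Other genes of the pathway were taken from lists of their roles. Of 7 other MAPK phosphatases 5 were tested, and in Tconvs 1 rose and 3 fell on activation: Dusp22 rose by 2.51 ± 0.15 on the log2 scale, and Dusp7, a cytoplasmic ERK phosphatase like Dusp6, and Dusp3 fell by 1.38 ± 0.15 and 0.89 ± 0.37. Dusp3 was at a mean of 9.43 and 5.44 normalized counts, near the filter. In tTregs Dusp14 alone of the 5 changed (1.5 ± 0.20), and in restimulated iTregs Dusp16, a phosphatase of JNK and p38, and Dusp3 rose (1.29 ± 0.19 and 0.87 ± 0.20) and Dusp7 fell by 0.66 ± 0.17. Dusp16, like Dusp4, was highest among iTregs after restimulation, with means of 79.6, 189.8, 102 and 92.3 normalized counts at rest, after restimulation, with CM-4620 and with CsA. The mean of Dusp4 was lower with CM-4620 than with CsA (393 against 475), and that of Dusp16 was lower with CsA. Against restimulated iTregs, Dusp16 was lower with CM-4620 (-0.88 ± 0.19, adjusted p = 0.00974) and with CsA (-1.03 ± 0.19, 0.00368). The alternatives were read gene by gene for the 9 members only, so these calls were not checked under them.

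Of 13 other Ras and Raf brakes 10 were tested in the sorted cells and 11 in iTregs. On activation 2 rose and 3 fell in Tconvs, led by the Ras-GAPs Rasa3 and Rasa2 (-1.58 and -1.13) and by Pebp1, which binds Raf and rose by 1.04. In tTregs 2 rose and 2 fell, among them Rasa1 (-1.0), Nf1, which encodes neurofibromin (-0.72), and Pebp1 (0.77). In restimulated iTregs 1 rose and 2 fell: Spred3 (1.03), Rasa3 (-0.85) and the adaptor Dok2 (-0.62). No gene of this list passed with CM-4620 or CsA, where the median log2 fold changes were -0.14 and 0.03.

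All 16 genes of the ERK cascade were tested. In Tconvs 2 rose and 5 fell on activation, among them the Ras exchange factor gene Sos1 (-1.01) and the Raf kinase gene Braf (-0.87), and the median of the list was -0.31. In tTregs 1 rose and 2 fell, Map2k1, which encodes MEK1 (1.20), Sos1 (-0.74) and the exchange factor Rasgrp1 (-0.53). The SDs of Map2k1 were 649.8 and 632 normalized counts around means of 1108 and 2208 in resting and activated tTregs. In restimulated iTregs none rose and 3 fell, among them Hras and Rasgrp1 (-0.65 and -0.59). With CM-4620 the scaffold gene Ksr1 was lower (-0.57), and with CsA none passed.

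Of the JNK and p38 cascade all 13 genes were tested in the sorted cells and 12 in iTregs. In Tconvs 2 rose and 3 fell, led by the p38 targets Mapkapk3 (1.67) and Mapkapk2 (1.04) and by Mapk8, which encodes JNK1 (-1.05). In tTregs 3 rose and 2 fell, led by the p38 activator Map2k3 (1.42), Mapkapk3 (1.12) and Map3k1 (-0.95). The SDs of Map2k3 were 435.9 and 452.3 normalized counts around means of 697.9 and 1603 in resting and activated tTregs. In restimulated iTregs Mapk13 and Map2k7 fell by 0.99 and 0.56, and none passed with either inhibitor.

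Of 12 genes that ERK signaling induces, 9 were tested. In Tconvs Egr2 and Myc rose by 3.50 ± 0.34 and 3.19 ± 0.15, and 2 genes fell, among them Etv5 (-2.53 ± 0.20). The median log2 fold change of the 9 there was -0.29. In tTregs 1 rose, Ier3 (1.07 ± 0.38), and Ccnd1 and Etv5 fell by 1.16 and 0.64, while Egr2 and Myc had log2 fold changes of 0.02 ± 0.34 and 0.21 ± 0.15. In restimulated iTregs Fos fell by 1.40 ± 0.20 (adjusted p = 0.000110), and Ier3 rose by 0.92 ± 0.14. Fos had log2 fold changes of 0.44 ± 0.37 in Tconvs and -0.62 ± 0.37 in tTregs (adjusted p = 0.318 and 0.215). Against restimulated iTregs, Fos was higher with CM-4620 and with CsA (1.13 ± 0.20 and 1.07 ± 0.20) and Egr2 lower (-1.07 ± 0.27 and -1.21 ± 0.27). These comparisons and the fall of Fos share the restimulated libraries, where the mean of Fos was low and near the filter. Shares of tested genes that changed are given in the order of the 5 lists. In Tconvs they were 4 of 5, 5 of 10, 7 of 16, 5 of 13 and 4 of 9. Beside them stood 7 of 9 members and 50.2% of all genes tested. In tTregs they were 1 of 5, 4 of 10, 3 of 16, 5 of 13 and 3 of 9. There 2 of 9 members and 21.9% of all genes tested changed. In restimulated iTregs they were 3 of 5, 3 of 11, 3 of 16, 2 of 12 and 2 of 9. There 1 of 9 members and 12.8% of all genes tested changed.

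For each member the 3 genes whose log2 values followed it most closely over the 24 libraries were named by Pearson's r, as a description in which the libraries share groups and cell types. Dusp4 was closest to Lama5, Cd81 and Nfil3 (0.98, 0.98 and 0.97), Dusp6 to 1810037I17Rik, Gins3 and Ckap2 (each 0.98), and Dusp10 to Lyst, Etfbkmt and Atp8a1 (each 0.97). Dusp5 was closest to Slamf1, Vav2 and Zfp870 (0.96 each), and Spry1 to Cndp2, Ezh2 and Il2ra (0.94 each). The closest genes to Spry2 were Slc41a2, Dipk2a and Hdac7 (0.93 each), and those to Dusp1 were Akirin1, Galnt11 and Rala (0.93 each). Dusp2 and Spred1 had no close match, with a highest r of 0.69 (Camta2) and 0.82 (Abca1).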

How the data were processed

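RNA was measured by a modified SMART-seq2 protocol, which selects poly-A RNA and keeps no strand. According to the methods and the submitters' processing notes, reads were trimmed with cutadapt 1.18, aligned to mm10 with STAR 2.5.3 and counted per gene with RSEM 1.3.0 on GENCODE M23. The authors deposited counts divided by 1 size factor per library (DESeq2 1.26), a signal value per gene called normalized count here. All values came out as whole reads, within 0.01, when multiplied back, which gave each library's depth.

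A gene was tested if 3 or more libraries reached 10 normalized counts. Tests were made with limma 3.58.1 (R 4.3.3, trended prior) on log2(normalized count + 1) with Benjamini-Hochberg adjustment over all genes of a fit. Comparisons of Tconvs, tTregs and resting iTregs used 15 libraries, those among iTregs 12, and those of restimulated iTregs with activated cells 24. All 9 members passed the filter in each, Spry2 only through its iTreg libraries. A call needed an adjusted p under 0.05 and a log2 fold change over 0.5 in size. The steps were tested on simulated data for a single comparison, restimulated against resting iTregs in the 12 iTreg libraries. The other fits, the differences of responses and the spread of tTregs were not simulated.

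Alternatives were other scalings, pseudocounts, filters, library sets, thresholds, a replicate block and leaving out each replicate number. edgeR 4.0.16 and DESeq2 1.42.0 on the recovered reads were added after seeing the data. Members and gene lists were chosen with earlier results of these data known. Named beside the members were up to 3 called genes per list and comparison with the largest change, and the 3 genes most like each member. In the ERK cascade list, 1 gene that this rule names is not reported here. Exon lengths and overlaps came from GENCODE M21 on GRCm38. Other assays of the series were not analysed here. Tables were handled in Python 3.11.15 with pandas 2.3.3, and plotted with matplotlib 3.10.9.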

Additional observations from a re-analysis of the deposited data

Results flagged for a closer look

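For 5 of the 9 genes the change on activation differed between Tconvs and tTregs, against 34.7% of all genes tested. This was the test of that difference itself (limma, an interaction term, 3 libraries per group). The response of Tconvs exceeded that of tTregs on the log2 scale by 2.23 for Spry1 (95% interval 1.3 to 3.16), 1.71 for Dusp10 (1.41 to 2.02), 1.57 for Dusp5 (1.15 to 1.99), 1.54 for Dusp4 (0.47 to 2.60) and 0.98 for Dusp6 (0.35 to 1.60). All 5 rose in Tconvs, and Dusp10 alone of them fell in tTregs. The calls of Dusp4 and Dusp6 were lost without the libraries numbered 2 and without those numbered 3. That of Dusp4 was also lost with a pseudocount of 5 and with edgeR on the reads. The tTreg groups had the lowest median depth of the RNA-seq groups, and the part of depth in these differences was not tested. The spread between tTreg libraries was also wider, at 12.7 to 36.3 times the variance of counting between pairs against 3.01 to 9.35 in Tconvs, and its part was not tested. With 3 libraries per group, a test for a single outlying value was not made.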

How the results depend on the processing

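Of 56 called differences of the 9 genes, 42 kept their call under every alternative at the same thresholds and 14 lost it under at least 1, in 41 of 755 values, and none changed sign. Of 97 differences that were not called, 19 passed under at least 1 alternative. The number of the 9 genes called moved as follows. For the iTreg against the tTreg response it was 0 and became 1 with quantile normalization or a pseudocount of 5, and 1 to 2 with a replicate number left out. For CsA against restimulation it was 2 and became 1 with no filter, 0 with all 24 libraries or a log2 threshold of 1, and 0 to 1 with a number left out. For CM-4620 against restimulation it was 1 and became 0 with all 24 libraries or a log2 threshold of 1, and 0 to 1 with a number left out. For CsA against rest it was 0 and became 1 with the adjusted p alone, and 0 to 1 with a number left out. For tTreg activation it was 2 and became 0 with a log2 threshold of 1, and 1 to 2 with a number left out, while quantile normalization, a pseudocount of 5, all 24 libraries and edgeR each gave 3. For activated tTregs against activated Tconvs it was 4, and 3 to 6 with a number left out. For Tconv against tTreg responses it was 5, and 3 without numbers 2 or 3. For resting iTregs against resting tTregs it was 5, and 3 without number 2. With the adjusted p alone, restimulation gave 2 and CM-4620 against CsA gave 1. For restimulated iTregs against activated Tconvs a filter at 100 left 3 of 6, since fewer genes were tested. Over all genes, the adjusted p alone raised the calls of restimulation from 1425 to 3264. Calls of CM-4620 rose from 366 to 869 and those of CsA from 324 to 945, and with all 24 libraries they fell to 232 and 187. Quantile normalization moved the share of higher genes among all calls from 55.1% to 42.8% for resting iTregs against activated Tconvs, and from 54.9% to 44.3% for restimulated iTregs against them. It moved the median log2 fold change of all genes from 0.02 to -0.11 in the first and from 0.01 to -0.10 in the second, and no called difference of the 9 genes changed sign under it.

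In no comparison did all 3 same-numbered pairs of libraries deviate together with an r over 0.1, so the numbers were not taken to pair the samples. Between resting and activated tTregs r ran from -0.395 to -0.109. Among the 6 comparisons of iTregs it ran from -0.023 to 0.238, and for number 3 from 0.147 to 0.238, against -0.063 to -0.043 on average for different numbers. With the replicate block, CsA against rest gave 1 called gene, Dusp1 (-0.54, adjusted p = 0.000111), in place of 0. On restimulation the block gave Dusp1 an adjusted p of 0.000346 at a log2 fold change of -0.46, under the fold threshold, and Dusp1 was lower after restimulation in all 3 same-numbered pairs. The block also ended the calls of Spry2 for resting iTregs against resting tTregs (adjusted p = 0.0623) and of Spry1 for restimulated iTregs against activated Tconvs (0.0577).

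With 3 libraries per group, differences under the intervals given could not be resolved, and Spry2 in sorted cells is limited by its reads. Which mice gave which library is not stated.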
